A study of Mus musculus with 9 samples.

Results

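The chemokine system of the mouse liver was described in healthy livers, in hepatocellular carcinoma (HCC) and in HCC treated with the microRNA miR-22, from RNA sequencing of 9 livers. Its members were the 60 genes, of 55401 in the table of read counts, whose symbols name a chemokine (Ccl, Cxcl, Cx3cl or Xcl with a number), a chemokine receptor (Ccr, Cxcr, Cx3cr or Xcr) or an atypical receptor (Ackr). They comprise 38 ligands and 22 receptors, and the choice used the symbol alone, not the measured values. All mice were female and are labelled wild type. The 3 healthy livers came from mice without treatment, for which no age or time is given. HCC was produced at 6 weeks of age by hydrodynamic tail vein injection, which drives plasmids into hepatocytes, using sleeping beauty vectors for activated AKT (myr-AKT) and NRAS together with the transposase SB11. The labels' protocol also lists an N90-β-catenin plasmid, whereas the series' design text names RAS/AKT only. At 1 week after the oncogenes, mice received adeno-associated virus of serotype 8 (AAV8), either a blank control (untreated HCC, 3 livers) or one carrying miR-22 under a CMV promoter, which is not restricted to hepatocytes (miR-22-treated HCC, 3 livers). Livers were taken 5 weeks after the oncogenes, 4 weeks after the virus. The healthy mice are labelled as untreated, so tumor, injection and virus cannot be told apart in a comparison with them. The strain is C57BL/6 in 1 field of the labels and FVB/N in another.

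Chemokines are small secreted proteins that guide leukocytes along a gradient by binding receptors coupled to inhibitory G proteins. CXC ligands such as Cxcl1 and Cxcl2 recruit neutrophils through Cxcr2, CC ligands such as Ccl2 and Ccl7 recruit monocytes through Ccr2, and Cxcl9, Cxcl10 and Cxcl11 act on T cells and NK cells through Cxcr3. Cxcl12 retains and positions cells that carry Cxcr4. The atypical receptors bind chemokines without classical signaling and remove or transport them. In liver, chemokines come from hepatocytes, sinusoidal endothelium, Kupffer cells, stellate cells and bile duct cells.

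Sequences of the treatment and of promoters in the neutrophil ligand cluster are shown. Cxcl1, Cxcl2 and Cxcl3 were higher in untreated HCC than in healthy livers. With miR-22, Cxcl2 and Cxcl3 were called lower, whereas Cxcl1 was not called. The mature miRNA of the treatment, as named in the study's methods, is given from RefSeq with its seed, bases 2 to 8, in capitals:
mmu-miR-22-3p: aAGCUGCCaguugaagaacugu
The 100 bases before the RefSeq start of each of these 3 ligands (build GRCm38.p6, plus strand) are given with a shared run, which contains the pattern GGGANNTTC on both strands in overlapping positions, in capitals:
Cxcl3, chr5:90786001-90786100: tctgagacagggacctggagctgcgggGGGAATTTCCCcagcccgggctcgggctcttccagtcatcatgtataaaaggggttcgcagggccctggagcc
Cxcl1, chr5:90891145-90891244: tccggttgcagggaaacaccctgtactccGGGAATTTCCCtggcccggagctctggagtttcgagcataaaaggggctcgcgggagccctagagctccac
Cxcl2, chr5:90903799-90903898: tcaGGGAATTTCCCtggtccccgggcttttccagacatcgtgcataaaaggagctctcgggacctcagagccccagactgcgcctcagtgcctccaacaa
GGGANNTTC is part of the pattern bound by NF-kappaB. It was searched on both strands of the 250 bases before each RefSeq start and occurred for 3.70% of 27025 genes, and for 8 of the 45 members that have an entry (Ccl1, Ccr3, Cxcl1, Cxcl2, Cxcl3, Cxcl9, Cxcl10 and Cxcr2, 17.8%). The interferon response pattern AAANNGAAA, searched in the same way, occurred for 10.8% of genes and for 6 of the 45 members (13.3%). These matches are descriptions of the letters in the windows, not sites shown to be bound.

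Each library held 16664659 to 23908392 counts. The largest total was that of untreated HCC replicate 4 and the smallest that of miR-22-treated HCC replicate 3. Read counts were scaled by edgeR's TMM factors, which were 1.121 to 1.223 in untreated HCC, 0.942 to 1.029 with miR-22 and 0.8655 to 0.8721 in healthy livers, and normalized counts below are at a mean effective library size of 19401057. A gene was called higher or lower when edgeR's quasi-likelihood F test, adjusted by Benjamini-Hochberg over all 15717 genes tested, gave p under 0.05 and the fold change was over 1.5. Differences below that carry an error are log2 fold changes of the first named group over the second, with their standard error and 3 livers in each group. Nothing in the labels states beyond separate sample titles that the libraries came from separate mice, so p-values measure the spread between these libraries. In untreated HCC all 8 hepatocyte markers checked were lower than in the healthy livers, and their summed level was 49940 to 62940 CPM (counts scaled to a fixed library total) there, 77220 to 94810 with miR-22 and 128300 to 133400 in healthy livers. In bulk tissue, fewer cells of a type and less RNA per cell cannot be told apart.

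Between untreated HCC and healthy livers, the neutrophil and monocyte ligands tested were among the members that were higher, and Cxcl12 among those that were lower. Of the 45 members with enough counts to test, 23 were higher in untreated HCC, against a background of 22.7% of all genes tested, and 5 were lower (Cxcl12, Cxcl11, Ccr9, Ackr4 and Ccl27a), against 18.1%. The other 17 were not called. Of the 23 higher members, 18 did not reach the filter's cut-off in every healthy library and were tested through the HCC groups, where they are high, so their number is a description. Among the 19 members with at least 10 counts in every library, 5 were higher, against 20.1% of the 12836 genes that passed this filter, and 4 lower, against 17.9%, so these shares lay near those of all genes. Of the 23, 11 held 3 counts or fewer in each healthy library, and for these the fold change is given as a lower bound computed against that floor. Between miR-22-treated and untreated HCC, 3 members were higher with miR-22 (Cxcl12, Ackr4 and Ccr9), against 8.32% of all genes, and 5 were lower (Cxcl2, Cxcl3, Cxcl13, Ccl7 and Cx3cr1), against 5.47%. With libraries scaled by total counts alone, these numbers were 3 and 10, against 5.31% and 13.8% of all genes. The remaining 37 were not called. The split of ligands and receptors by role is shown in the plot of fold changes.

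**Figure D1:**
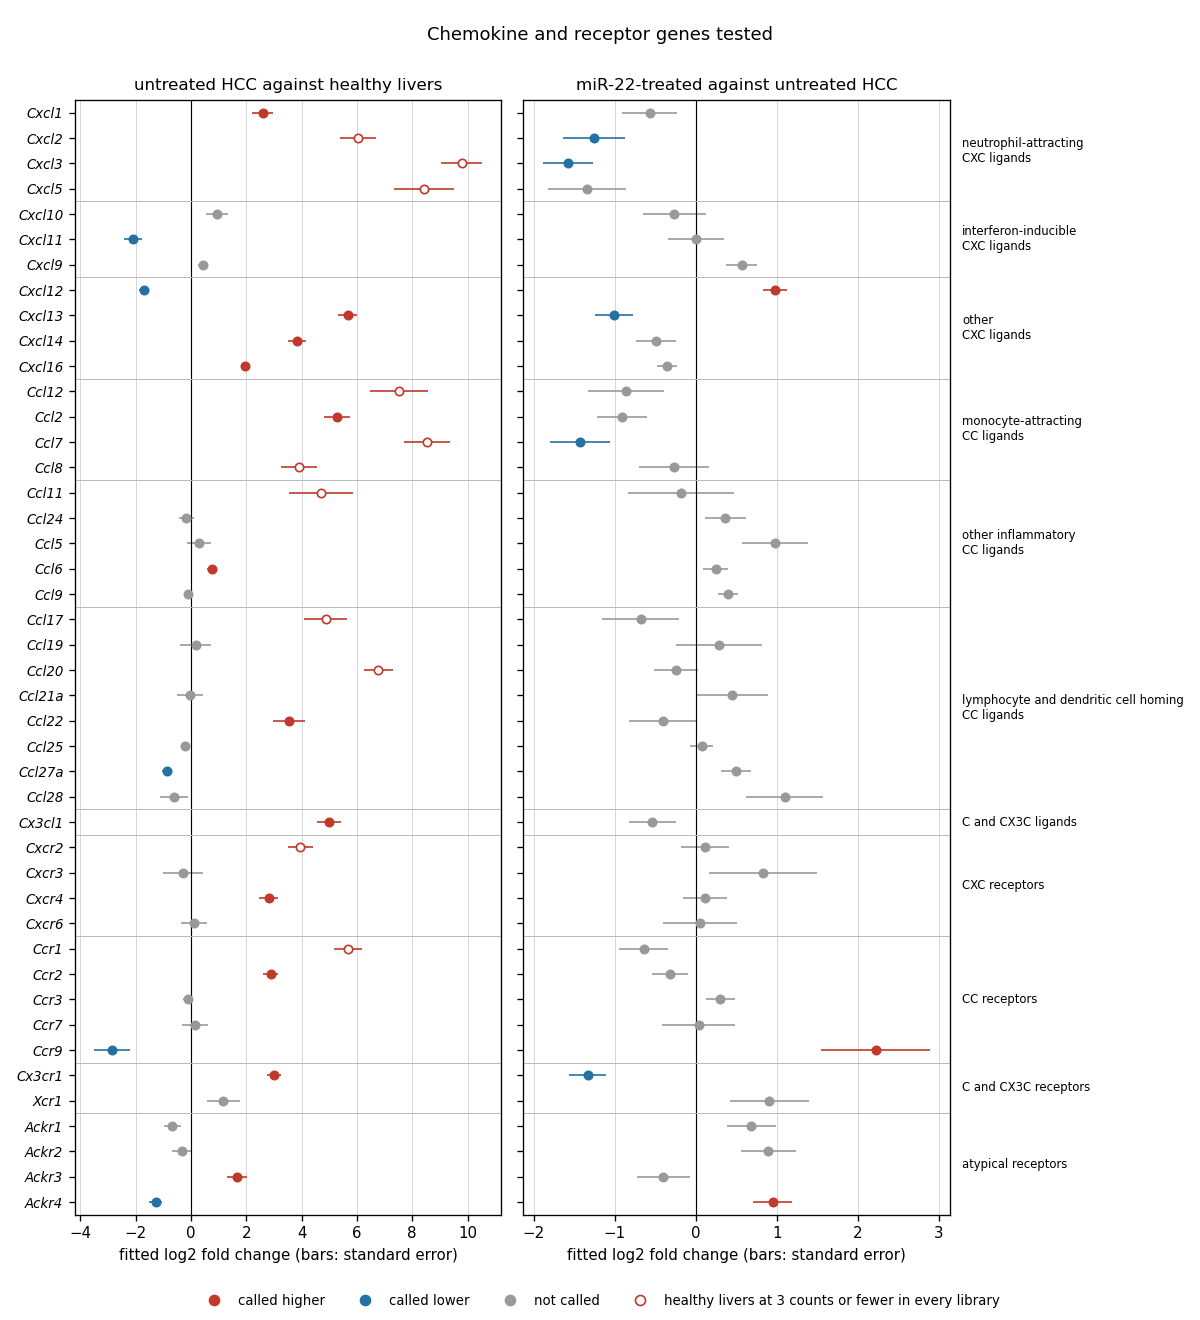
Fitted log2 fold changes (x axis, bars for 1 standard error) of tested members, 1 per line and grouped by role, for untreated HCC against healthy livers (left) and miR-22-treated against untreated HCC (right). Red points were called higher, blue lower and gray neither. Open points, drawn on the left only, mark members with 3 counts or fewer in every healthy library, whose fitted value there depends on the prior count. All 4 neutrophil ligands and all 4 monocyte ligands are red on the left, and on the right the points of these 8 ligands lie left of 0.

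The 4 neutrophil ligands tested were at 3 counts or fewer in each healthy library apart from Cxcl1, and all were higher in untreated HCC. Cxcl1, a main ligand of Cxcr2 (GRCm39 chr5:91039094-91040974), had normalized counts of 466, 158 and 145 in healthy livers, 1781, 1660.1 and 1173 in untreated HCC and 1277, 713 and 1117 in miR-22-treated HCC. Healthy replicate 1 stood above the other two, and all 6 HCC libraries stood above it. Cxcl1 was higher in untreated HCC than in healthy livers by 2.59 ± 0.37 on the log2 scale (adjusted p = 6.85e-05, edgeR), and by 3.33 without healthy replicate 1. Cxcl3 (GRCm39 chr5:90933962-90937459) had no count in any healthy library, 133, 99.9 and 97.8 in untreated HCC and 46.6, 21.0 and 41.5 in miR-22-treated HCC, without overlap between the HCC groups. Its level in untreated HCC was at least 31.4-fold higher than in healthy livers (adjusted p = 1.39e-06, edgeR), and fell with miR-22 by 1.58 ± 0.31 on the log2 scale (adjusted p = 0.0049). Cxcl2 (GRCm39 chr5:91051730-91053797) had 2.44, 0 and 0 in healthy livers, 60.0, 69.5 and 50.0 in untreated HCC and 25.5, 16.1 and 32.3 in miR-22-treated HCC. It was at least 17.1-fold higher in untreated HCC and fell with miR-22 by 1.26 ± 0.38 on the log2 scale (adjusted p = 0.0302, edgeR). The groups did not overlap, yet the call with miR-22 was lost when untreated HCC replicate 2 or 3, or miR-22-treated HCC replicate 2 or 3, was left out (log2 fold change -1.26, -1.14, -1.28 and -1.04). Cxcl5, a further Cxcr2 ligand of epithelial cells, had no count in healthy livers, 64.6, 27.8 and 35.5 in untreated HCC and 27.7, 12.4 and 10.2 in miR-22-treated HCC. It was at least 12.2-fold higher in untreated HCC, whereas its difference with miR-22 of -1.34 ± 0.48 had an adjusted p of 0.0685 and was called in 5 of 18 alternatives, among them DESeq2 and the analysis without miR-22-treated HCC replicate 2 (-1.92). Cxcl1 with miR-22 differed by -0.57 ± 0.34 (95% interval -1.30 to 0.16, adjusted p = 0.252) and was not called.

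Cxcr2, the neutrophil receptor of these ligands, was higher in untreated HCC and was not called with miR-22. Its normalized counts were 2.44, 1.22 and 3.20 in healthy livers, 47.3, 33.9 and 32.6 in untreated HCC and 45.5, 44.5 and 33.2 in miR-22-treated HCC, so the HCC groups overlapped. It was at least 10.8-fold higher in untreated HCC, and its difference with miR-22 was 0.11 ± 0.30 (interval -0.54 to 0.76, adjusted p = 0.822). Cxcr1, the other receptor for such ligands, had no count in any library. Markers of neutrophils were higher in untreated HCC as well. Of 12 on the list 5 could be tested, and all 5 were higher in untreated HCC (S100a9 by 3.51 ± 0.51, or 5.04 without healthy replicate 1, Csf3r by 2.42 ± 0.25 and S100a8 by 3.30 ± 0.56 on the log2 scale) while with miR-22 edgeR and DESeq2 called 0 of the 5, and 0 had an unadjusted p under 0.05. Of the 5, only Csf3r reached the filter's cut-off in every healthy library (44, 22 and 26 counts, against 6, 0 and 6 for S100a8). The others were tested through the HCC groups, where they are high, so this number is a description. Of all genes tested, 22.7% were higher in untreated HCC. The call of Ltf, another of the 5, was lost without healthy replicate 3 or untreated HCC replicate 2 or 3 (2.81, 3.21 and 2.92). The summed level of the markers was 19.2 to 25.6 CPM in untreated HCC, 17.5 to 30.7 with miR-22 and 2.08 to 5.03 in healthy livers, and Ly6g, a defining marker, held 3 counts or fewer in every library. Their part in the Cxcr2 values was not tested.

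Monocyte attractants behaved alike in untreated HCC. Ccl2, the main ligand of Ccr2 (GRCm39 chr11:81926397-81928279), had normalized counts of 14.6, 1.22 and 5.33 in healthy livers, 275, 329 and 230.5 in untreated HCC and 141, 90.3 and 209 in miR-22-treated HCC, with no overlap between the groups. It was higher in untreated HCC by 5.29 ± 0.46 on the log2 scale (adjusted p = 1.17e-06, edgeR), and by 6.29 without healthy replicate 1. Its difference with miR-22 of -0.91 ± 0.31 narrowly missed the threshold (adjusted p = 0.0508, edgeR), and passed it in 9 of 18 alternative analyses, among them DESeq2 and each other scaling, so that call depended on the setting. Ccl7, a second Ccr2 ligand next to Ccl2 (GRCm39 chr11:81936532-81938351), had no count in healthy livers, 40.9, 55.6 and 41.3 in untreated HCC and 21.1, 9.90 and 19.4 in miR-22-treated HCC. It was at least 13.1-fold higher in untreated HCC and fell with miR-22 by 1.43 ± 0.37 on the log2 scale (adjusted p = 0.0193, edgeR). The latter call was lost without untreated HCC replicate 2 or 3 or miR-22-treated HCC replicate 3 (-1.51, -1.27 and -1.18). Ccl12, a mouse ligand of Ccr2, had no count in healthy livers, 24.5, 30.4 and 14.5 in untreated HCC and 8.88, 9.90 and 18.5 in miR-22-treated HCC, and was at least 6.60-fold higher in untreated HCC. Ccl8 had 1.22, 1.22 and 3.20 in healthy livers, 32.7, 42.6 and 17.4 in untreated HCC and 13.3, 29.7 and 33.2 in miR-22-treated HCC, and was at least 8.81-fold higher. Neither Ccl12 nor Ccl8 was called with miR-22 (adjusted p = 0.223 and 0.702), and the HCC groups overlapped for both.

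Ccr2, the receptor of Ccl2, Ccl7 and Ccl12 on inflammatory monocytes, had normalized counts of 30.5, 35.4 and 42.6 in healthy livers, 305, 277 and 227 in untreated HCC and 234, 136 and 277 in miR-22-treated HCC. It was higher in untreated HCC by 2.89 ± 0.27 (adjusted p = 1.72e-06, edgeR) and differed by -0.31 ± 0.22 with miR-22 (interval -0.80 to 0.17), which was not called. Ccr1, a receptor of Ccl6 and Ccl9 on myeloid cells, had 0, 3.67 and 2.13 in healthy livers, 143, 72.1 and 102 in untreated HCC and 63.2, 61.9 and 77.5 in miR-22-treated HCC. Its level was at least 30.1-fold higher in untreated HCC, and the HCC groups overlapped. Of 12 markers of monocytes and macrophages, all tested, 9 were higher and 1 lower in untreated HCC, with a sum of 251.8 to 282.3 CPM in untreated HCC, 277.5 to 343 with miR-22 and 186.4 to 203.2 in healthy livers. Some of the 12 did not reach the filter's cut-off in every healthy library (Vcan held 1, 7 and 4 counts). The number higher is therefore a description, against 22.7% of all genes, and was 7 to 9 with 1 library left out. Vcan, a proteoglycan of monocytes, fell with miR-22 by 1.05 ± 0.31, a call lost without untreated HCC replicate 2 or 3 or miR-22-treated HCC replicate 3 (-1.01, -0.97 and -0.76). The part of these cells in the Ccr2 and Ccr1 values was not tested.

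**Figure D2:**
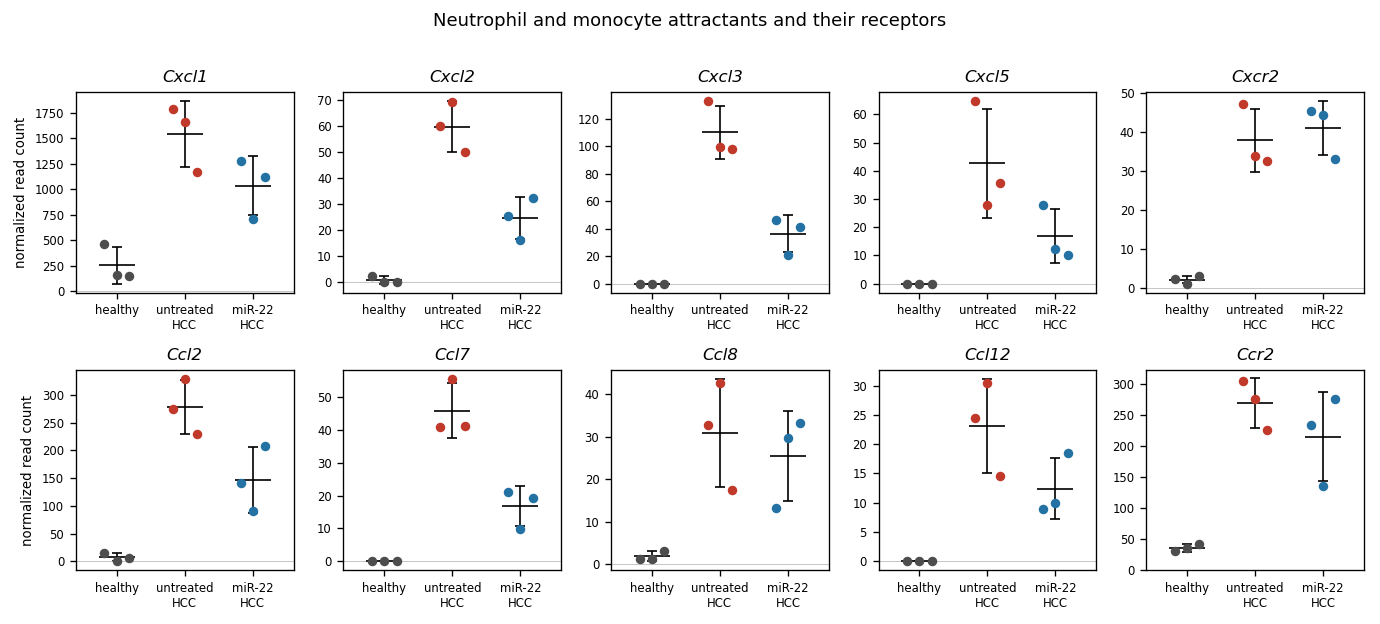
Normalized read counts (y axis, a separate linear scale for each gene) of neutrophil ligands with Cxcr2 and of monocyte ligands with Ccr2, in healthy livers (gray), untreated HCC (red) and miR-22-treated HCC (blue). Points are libraries in replicate order, and black bars show the mean and SD of 3. For Cxcl2, Cxcl3, Ccl2 and Ccl7 all blue points lie below all red points, whereas for Cxcr2 and Ccr2 they overlap.

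The fractalkine pair was higher in untreated HCC, and the receptor was the member with the smallest p among those lower with miR-22. Cx3cr1, the fractalkine receptor of monocytes and resident macrophages (GRCm39 chr9:119877749-119898945), had normalized counts of 35.4, 44.0 and 55.4 in healthy livers, 337, 433 and 311 in untreated HCC and 182, 94.0 and 150.4 in miR-22-treated HCC. The 3 groups did not overlap. It was higher in untreated HCC by 2.99 ± 0.25 and fell with miR-22 by 1.34 ± 0.22 on the log2 scale (adjusted p = 0.00145, edgeR), a call that held in all 19 alternatives. Its ligand Cx3cl1, which exists as a membrane-bound and a shed form, had 7.32, 1.22 and 5.33 in healthy livers, 172, 164 and 123 in untreated HCC and 125, 61.9 and 127 in miR-22-treated HCC. Cx3cl1 was higher in untreated HCC by 5.00 ± 0.43 (adjusted p = 1.09e-06, edgeR), and its difference of -0.53 ± 0.29 with miR-22 was not called.

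Among other CXC ligands, Cxcl13, Cxcl14 and Cxcl16 were higher in untreated HCC. Cxcl13, the B cell attractant that binds Cxcr5 (GRCm39 chr5:96104810-96108927), had normalized counts of 17.1, 9.78 and 4.26 in healthy livers, 554, 603 and 417 in untreated HCC and 257, 182 and 337 in miR-22-treated HCC. All 3 groups were separate. It was higher in untreated HCC by 5.67 ± 0.35 (adjusted p = 7.96e-08, edgeR) and fell with miR-22 by 1.01 ± 0.23 on the log2 scale (adjusted p = 0.00804). Its receptor Cxcr5 held 2 to 10 counts in each library and was not tested. Cxcl14, a chemokine of epithelia whose receptor is less well defined, had 7.32, 7.33 and 14.9 in healthy livers, 137, 155 and 147 in untreated HCC and 67.7, 124 and 121 in miR-22-treated HCC, and was higher in untreated HCC by 3.85 ± 0.33. Cxcl16, the transmembrane ligand of Cxcr6, had 118, 126 and 139 in healthy livers, 536, 527 and 415 in untreated HCC and 363, 377 and 419 in miR-22-treated HCC, and was higher in untreated HCC by 1.94 ± 0.13 (adjusted p = 1.92e-07, edgeR). In GENCODE M39, 41.6% of its exon bases also belong to Zmynd15 and 43.2% to Med11 on the opposite strand, and reads of these genes cannot be told apart in libraries without strand. Zmynd15 was higher in untreated HCC by 1.00 ± 0.23 and Med11 was not called (0.41 ± 0.19). Cxcr6, the receptor of liver-resident T cells and NKT cells, had 30.5, 17.1 and 9.59 in healthy livers, 22.7, 15.6 and 23.2 in untreated HCC and 17.8, 33.4 and 13.8 in miR-22-treated HCC and was called in no comparison. Neither Cxcl14 nor Cxcl16 was called with miR-22 (adjusted p = 0.175 and 0.0588).

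**Figure D3:**
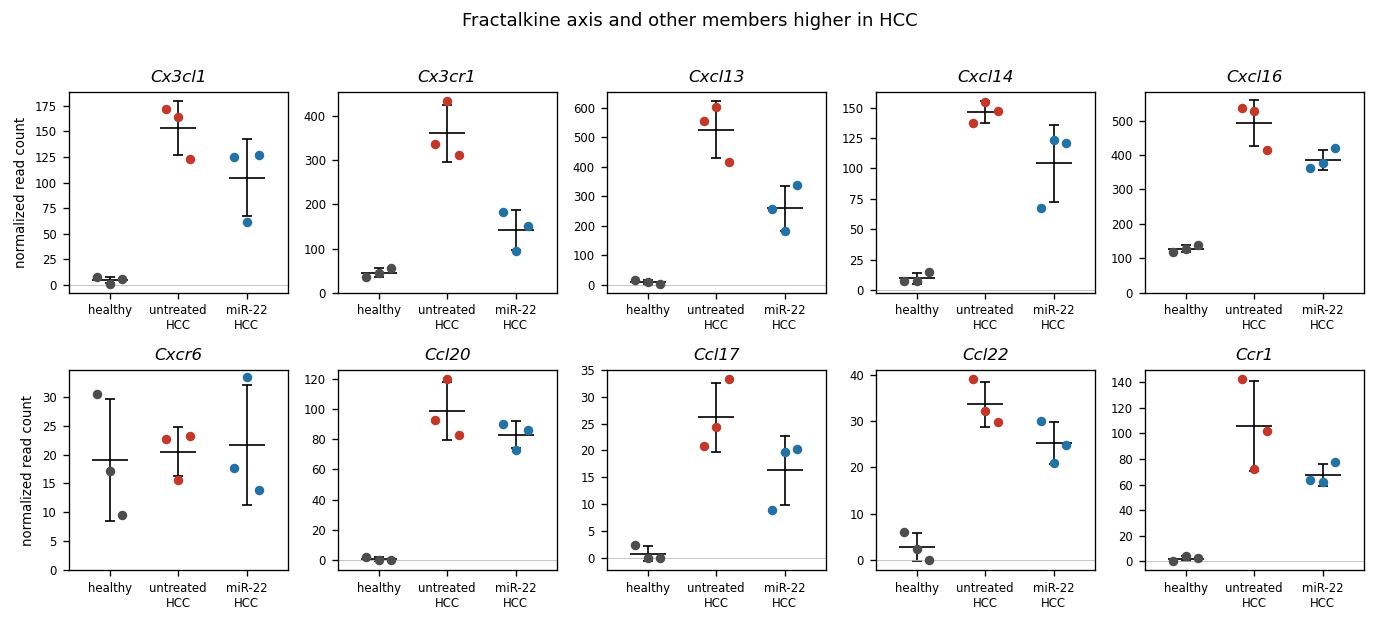
Normalized read counts (y axis, a separate linear scale for each gene) of the fractalkine pair, other CXC ligands with Cxcr6, homing ligands and Ccr1, in healthy livers (gray), untreated HCC (red) and miR-22-treated HCC (blue). Points are libraries and black bars the mean and SD of 3. For Cx3cr1 and Cxcl13 the 3 groups are separate, with untreated HCC highest, and for Cxcr6 they overlap.

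Among ligands that guide lymphocytes and dendritic cells, Ccl20, Ccl17 and Ccl22 were higher in untreated HCC and Ccl27a was lower. Ccl20, the ligand of Ccr6, had normalized counts of 2.44, 0 and 0 in healthy livers, 92.7, 119.9 and 82.6 in untreated HCC and 89.9, 73.0 and 85.8 in miR-22-treated HCC, so that its 2 healthy counts were in replicate 1. It was at least 28.1-fold higher in untreated HCC (adjusted p = 4.53e-07, edgeR), and with miR-22 it differed by -0.24 ± 0.27 (interval -0.83 to 0.34) and was not called. Ccr6 itself, a receptor of Th17 and B cells, held 0 to 14 counts, with the highest in untreated HCC replicate 3, and was too low to test. Ccl17 had 2.44, 0 and 0 in healthy livers, 20.9, 24.3 and 33.3 in untreated HCC and 8.88, 19.8 and 20.3 in miR-22-treated HCC, and was at least 7.47-fold higher in untreated HCC. Ccl22 had 6.10, 2.44 and 0 in healthy livers, 39.1, 32.1 and 29.7 in untreated HCC and 30.0, 21.0 and 24.9 in miR-22-treated HCC. It was higher in untreated HCC by 3.56 ± 0.58, by 4.72 without healthy replicate 1 and by 2.93 without healthy replicate 3. Ccl17 and Ccl22 share the receptor Ccr4, which held 0 to 7 counts and was not tested. Ccl27a, a skin-homing ligand of Ccr10, had 177, 145 and 142 in healthy livers, 68.2, 84.3 and 98.6 in untreated HCC and 123, 115 and 117 in miR-22-treated HCC, in 3 separate groups. It fell in untreated HCC by 0.88 ± 0.18 on the log2 scale (adjusted p = 0.00112, edgeR), a call lost with total counts alone (-0.46), and its difference with miR-22 of 0.50 ± 0.18 was not called (adjusted p = 0.0663) except without untreated HCC replicate 4 (0.64). Reads of Ccl27a and its near-identical copy Ccl27b, which had no count, could be split between them in counting, and the same holds for Ccl21a and Ccl21b. Ccl19 and Ccl21a, the ligands of Ccr7, and Ccr7 itself were called in no comparison, with 4.55 to 24.0 normalized counts in every library. Ccl28, a mucosal ligand, was not called either, with a difference of 1.10 ± 0.48 with miR-22 (adjusted p = 0.118).

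In the gut-homing pair of Ccl25 and Ccr9, the receptor was lower in untreated HCC and the ligand was not called. Ccl25 had normalized counts of 149, 178 and 176 in healthy livers, 143, 152 and 143 in untreated HCC and 149, 156 and 156 in miR-22-treated HCC, with overlap of healthy livers and both HCC groups. Its difference was -0.20 ± 0.14 in untreated HCC (interval -0.50 to 0.10) and 0.07 ± 0.14 with miR-22 (interval -0.23 to 0.38), neither called. Its receptor Ccr9, known on plasmacytoid dendritic cells and gut-homing lymphocytes (GRCm39 chr9:123507181-123613395), had 26.8, 26.9 and 7.46 in healthy livers, 1.82, 1.74 and 4.35 in untreated HCC and 16.6, 16.1 and 7.38 in miR-22-treated HCC. Untreated HCC was lowest and separate from both other groups, and healthy livers and miR-22-treated HCC overlapped. Ccr9 fell in untreated HCC by 2.83 ± 0.65 on the log2 scale (adjusted p = 0.00242, edgeR) and rose with miR-22 by 2.22 ± 0.67 (adjusted p = 0.031), at 2 to 6 counts in each untreated library. The call with miR-22 was lost without untreated HCC replicate 2 or 3, or miR-22-treated HCC replicate 2 or 3 (2.03, 2.01, 2.02 and 2.07). Siglech, a marker of plasmacytoid dendritic cells, rose with miR-22 by 1.12 ± 0.35 and was not called between untreated HCC and healthy livers (0.17 ± 0.38). Its call was lost without the same 4 libraries (1.11, 0.98, 0.91 and 1.09), and its part in the Ccr9 values was not tested. Of 12 T cell markers tested, 1 was higher in untreated HCC (Cd4, 0.72 ± 0.29, a call lost without any of 6 of the 9 libraries, at 0.46 to 0.80), and with miR-22 edgeR and DESeq2 called 0, with 0 at an unadjusted p under 0.05.

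Of the 5 other inflammatory CC ligands tested, Ccl6 and Ccl11 were called higher in untreated HCC. Ccl9, an abundant ligand of Ccr1 in mouse liver, had normalized counts of 1296, 1397 and 1380.4 in healthy livers, 1551, 1001 and 1241 in untreated HCC and 1690.0, 1697 and 1622 in miR-22-treated HCC. With miR-22 its difference of 0.40 ± 0.13 had an adjusted p of 0.0371 but stayed under the fold threshold. Ccl6, its neighbor on chromosome 11, had 144, 169.9 and 164 in healthy livers, 326, 253 and 230.5 in untreated HCC and 283, 313 and 362 in miR-22-treated HCC, and was higher in untreated HCC by 0.76 ± 0.16 (adjusted p = 0.00122, edgeR). Ccl11, the eosinophil attractant eotaxin, had 1 count in the healthy livers together, 18.2, 20.0 and 2.17 normalized counts in untreated HCC and 9.99, 16.1 and 9.23 in miR-22-treated HCC, and was at least 3.83-fold higher in untreated HCC. The other eotaxin tested, Ccl24, and their receptor Ccr3 were called in no comparison. Ccl5, a ligand made by T and NK cells, had 40.2, 15.9 and 13.9 in healthy livers, 40.0, 15.6 and 29.7 in untreated HCC and 61.0, 55.7 and 51.7 in miR-22-treated HCC. Its difference with miR-22 of 0.98 ± 0.41 was not called (adjusted p = 0.101) although the HCC groups did not overlap, and was called without a filter.

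Cxcl12 was the most abundant member in healthy livers and was lower in untreated HCC, where most called members were higher. This ligand of Cxcr4 and Ackr3, made by endothelial and stromal cells among others (GRCm39 chr6:117144945-117158328), had normalized counts of 12072, 12218 and 11656 in healthy livers, 3446, 3133 and 4409.9 in untreated HCC and 8009, 7821 and 5795 in miR-22-treated HCC. The 3 groups were separate, with miR-22-treated HCC between the others. Cxcl12 fell in untreated HCC by 1.71 ± 0.15 on the log2 scale (adjusted p = 1.35e-06, edgeR), to 0.306 of the healthy level, and rose with miR-22 by 0.98 ± 0.15 (adjusted p = 0.000925), 1.97-fold. Both calls held with each library left out, and the call with miR-22 was lost with glmTreat, which tests against a 1.5-fold change. Cxcr4, its signaling receptor, went the opposite way in untreated HCC, with 7.32, 25.7 and 12.8 in healthy livers, 96.4, 126 and 99.3 in untreated HCC and 113, 95.3 and 139 in miR-22-treated HCC. It was higher in untreated HCC by 2.81 ± 0.34 (adjusted p = 1.65e-05, edgeR), and with miR-22 it differed by 0.12 ± 0.27 (interval -0.47 to 0.71) and was not called. Ackr3, which takes up Cxcl12, had 7.32, 20.8 and 28.8 in healthy livers, 60.9, 61.7 and 62.3 in untreated HCC and 47.7, 38.4 and 53.5 in miR-22-treated HCC and was higher in untreated HCC by 1.68 ± 0.36 (adjusted p = 0.00157). Of 10 endothelial markers, 6 were lower in untreated HCC and 2 were higher with miR-22 (Clec4g by 0.85 ± 0.12 and Oit3 by 0.64 ± 0.15, a call lost at 0.51 without untreated HCC replicate 3 and at 0.57 without miR-22-treated HCC replicate 3, with 4 called without untreated HCC replicate 4 and 3 without miR-22-treated HCC replicate 4), with a sum of 333.5 to 425.4 CPM in untreated HCC, 448.8 to 552.4 with miR-22 and 542 to 651.2 in healthy livers. Their part in the Cxcl12 values was not tested.

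Atypical receptors did not move together. Ackr4, the scavenger of Ccl19, Ccl21 and Ccl25 (GRCm39 chr9:103961356-104004132), had normalized counts of 67.1, 111 and 86.3 in healthy livers, 32.7, 36.5 and 39.9 in untreated HCC and 68.8, 66.8 and 75.7 in miR-22-treated HCC. Untreated HCC was separate from the other groups. Ackr4 fell in untreated HCC by 1.27 ± 0.24 on the log2 scale (adjusted p = 0.000525, edgeR) and rose with miR-22 by 0.95 ± 0.24 (adjusted p = 0.0125), a call lost without untreated HCC replicate 2 (0.88). In GENCODE M39, 20.3% of its exon bases overlap exons of Acad11 on the opposite strand, and the reads of both cannot be told apart. Acad11, with 68708 counts over the 9 libraries, fell in untreated HCC by 1.28 ± 0.13 and rose with miR-22 by 0.71 ± 0.13, in the same directions as Ackr4, and its part in the Ackr4 values was not tested. Ackr1, which carries chemokines across venular endothelium, differed by -0.68 ± 0.31 in untreated HCC and by 0.69 ± 0.31 with miR-22 and was not called (adjusted p = 0.0759 and 0.124), except in untreated HCC without untreated HCC replicate 4 (-0.95). Of the exon bases of Ackr1, 25.7% overlap exons of Cadm3 on the same strand, so its counts are uncertain. Ackr2, a scavenger of inflammatory CC chemokines, differed by -0.32 ± 0.35 and 0.90 ± 0.34 and was not called, except with miR-22 in 3 of 19 alternatives, among them without miR-22-treated HCC replicate 2 (1.10).

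Among the interferon-inducible ligands of Cxcr3, Cxcl11 was lower in untreated HCC. Cxcl11 had normalized counts of 176, 128 and 90.6 in healthy livers, 21.8, 29.5 and 39.9 in untreated HCC and 41.1, 23.5 and 27.7 in miR-22-treated HCC. It fell in untreated HCC by 2.09 ± 0.32 on the log2 scale (adjusted p = 0.000103, edgeR), and with miR-22 its difference was 0.01 ± 0.34 (interval -0.74 to 0.75), with overlapping HCC groups. Cxcl9 had 321, 200.5 and 206 in healthy livers, 319, 289 and 374 in untreated HCC and 384, 563 and 511 in miR-22-treated HCC. Its difference was 0.44 ± 0.19 in untreated HCC (adjusted p = 0.0712) and 0.57 ± 0.19 with miR-22, where the adjusted p of 0.0446 passed but the fold did not. It was called with miR-22 without untreated HCC replicate 4 or miR-22-treated HCC replicate 2 (0.68 and 0.71). Cxcl10 had 78.1, 15.9 and 32.0 in healthy livers, 64.6, 93.0 and 81.9 in untreated HCC and 67.7, 70.5 and 61.8 in miR-22-treated HCC, and was not called. In GENCODE M39, 5.9% of its exon bases overlap exons of Art3 on the opposite strand, and 4.8% of those of Ccl25 overlap Elavl1, which leaves these values uncertain to that extent. Healthy replicate 1 was the highest healthy library for Cxcl9 and Cxcl10, and without it both were called higher in untreated HCC (0.68 and 1.70). Cxcl10 was called higher in 5 of 19 alternative analyses. Their receptor Cxcr3 had 2.44, 4.89 and 13.9 in healthy livers, 7.27, 8.69 and 2.17 in untreated HCC and 5.55, 11.1 and 14.8 in miR-22-treated HCC and was not called. Xcr1, the receptor of cross-presenting dendritic cells, had 8.54, 3.67 and 2.13 in healthy livers, 13.6, 13.0 and 5.80 in untreated HCC and 14.4, 26.0 and 20.3 in miR-22-treated HCC. It was called higher in untreated HCC only without healthy replicate 1 among the libraries left out (1.84). Its ligand Xcl1 held at most 4 counts in a library.

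**Figure D4:**
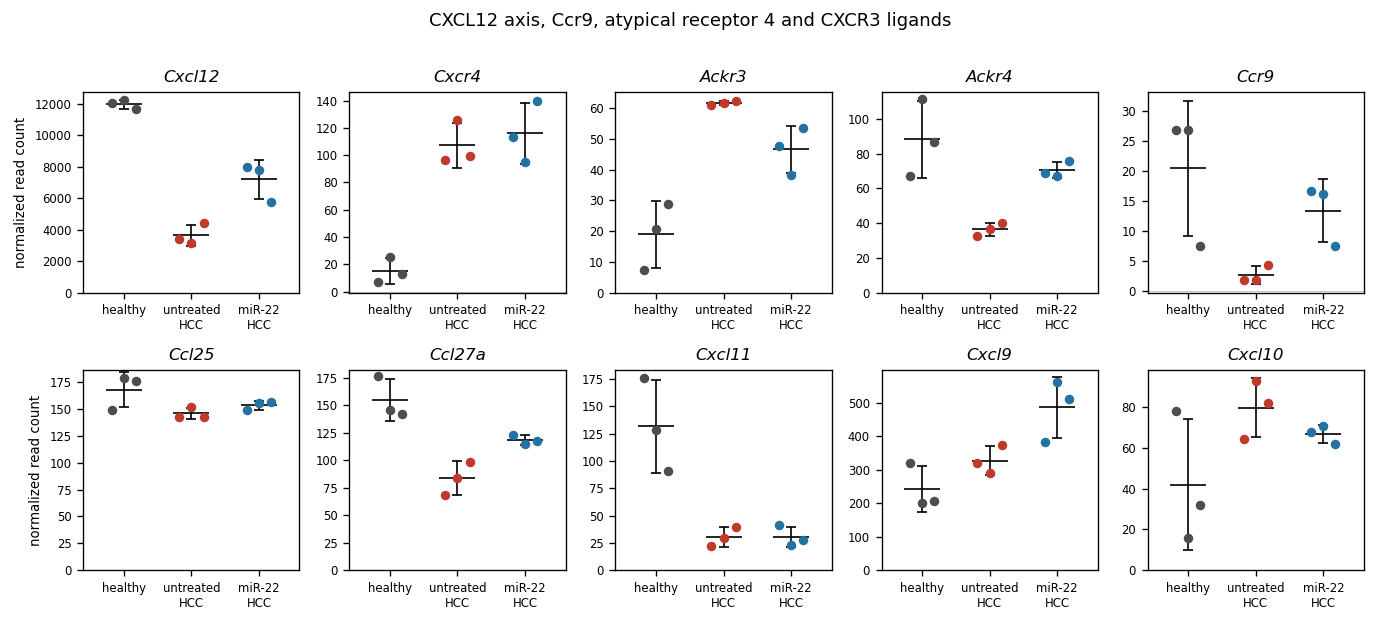
Normalized read counts (y axis, a separate linear scale for each gene) of Cxcl12 with its receptors Cxcr4 and Ackr3, of Ackr4, Ccr9, Ccl25 and Ccl27a, and of the Cxcr3 ligands, in healthy livers (gray), untreated HCC (red) and miR-22-treated HCC (blue). Points are libraries and black bars the mean and SD of 3. For Cxcl12, Ccl27a and Ackr4 the red points are lowest, and for Cxcl11 both HCC groups lie below healthy livers.

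Levels between genes were compared as normalized counts per kilobase of the Ensembl canonical transcript. In healthy livers the order was led by Cxcl12 with 2114 ± 51.4 (SD, n = 3), Ccl9 with 451 ± 17.9 and Cxcl1 with 267 ± 190 per kilobase, and the last of these ranged over its neighbors Ccl25 (186) and Ccl27a (169). In untreated HCC, Cxcl1 was first with a mean of 1604 per kilobase, followed by Cxcl12 (646), Cxcl13 (456), Ccl9 (420) and Ccl2 (342). The ranges of Cxcl13 (362 to 524), Ccl9 (332 to 515) and Ccl2 (283.5 to 405) overlapped. The order depends on the length used (959 bases for Cxcl1, 5669 for Cxcl12), as counts were summed over the transcripts of a gene. Before division by length, the means in untreated HCC were 3663 for Cxcl12 and 1538 for Cxcl1. In miR-22-treated HCC, Cxcl12 had the highest mean again (1272), followed by Cxcl1 (1080), with overlapping ranges of 1022 to 1413 and 743 to 1332, then Ccl9 (555) and Cxcl13 (225). Of all counts of members, Cxcl12 held 29.6% to 40.1% in untreated HCC, 45.2% to 56.8% with miR-22 and 76.1% to 78.4% in healthy livers. Summed over the members, counts were 546.2 to 597.5 CPM, 660.4 to 762.1 CPM and 770.6 to 817.8 CPM in the same order. Receptors held 12.4% to 14.0%, 7.73% to 10.7% and 4.19% to 4.60% of the members' counts.

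**Figure D5:**
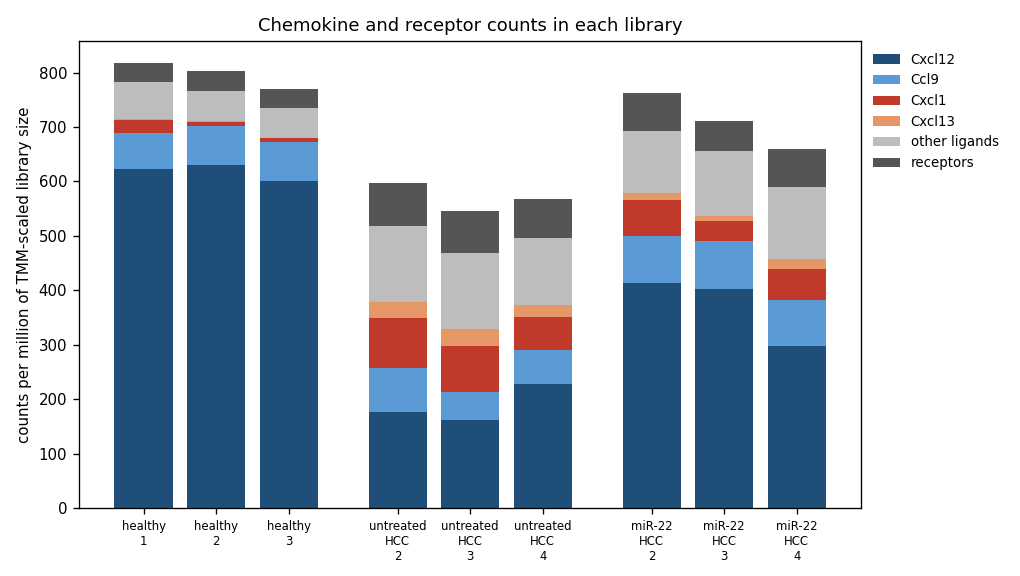
Counts of members in each library, in CPM of the TMM-scaled library size (y axis), stacked by gene or class, for 3 healthy livers, 3 untreated HCC and 3 miR-22-treated HCC. Cxcl12 is the largest of the 6 drawn parts in each library, with 29.6% against 25.6% for other ligands in untreated HCC replicate 3, and its part is smallest in untreated HCC.

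Between miR-22-treated HCC and healthy livers, which shares its samples with both comparisons above, 26 members were higher, against 16.9% of all genes, and 2 were lower (Cxcl12 and Cxcl11), against 7.05%. Of the 26, 19 did not reach the filter's cut-off in every healthy library, so this number too is a description, and among the 19 members with at least 10 counts in every library 7 were higher, against 13.7% of all genes. Cxcl12 was lower than in healthy livers, with a log2 fold change of -0.73 ± 0.15 (adjusted p = 0.00214, edgeR), as was Cxcl11 with -2.09 ± 0.32. The call of Cxcl12 was lost with total counts alone (-0.55) and with glmTreat. The members with the largest bounds were Ccl20, at least 23.6-fold higher, and Ccr1, at least 19.2-fold higher. Cxcl3 was at least 10.4-fold higher, against at least 31.4-fold in untreated HCC. Cxcl13 was higher by 4.66 ± 0.36, Ccl2 by 4.38 ± 0.48, Cx3cl1 by 4.47 ± 0.44 and Cx3cr1 by 1.66 ± 0.26 on the log2 scale, and without healthy replicate 1 the value of Ccl2 was 5.37. Cxcl9 (1.01 ± 0.19), Ccl5 (1.27 ± 0.43) and Xcr1 (2.07 ± 0.58) were called here and not between untreated HCC and healthy livers. Ccl5 lost its call when any of healthy replicates 2 and 3 and the 3 miR-22-treated libraries was left out (1.06, 0.98, 1.20, 1.28 and 1.33) and was 1.89 without healthy replicate 1. Xcr1 lost it without healthy replicate 2 or 3 (1.92 and 1.69) and was 2.75 without healthy replicate 1. Ackr3 (1.28 ± 0.37) lost its call without miR-22-treated HCC replicate 4 (1.16) and with the replicate number as a block. Ccl5, Xcr1 and Ackr3 also lost their calls with glmTreat. Ccr9, Ackr4 and Ccl27a, lower in untreated HCC, were not called here, with differences of -0.61 ± 0.55, -0.32 ± 0.23 and -0.38 ± 0.18.

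Too low to test were 15 members, 9 ligands and 6 receptors. Cxcr1, Ccl21b and Ccl27b had no count in any library, which allows up to 3 counts in each, and Ccl1 and Ccl26 held at most 1 count in a library. Ccl3 and Ccl4, inflammatory ligands of macrophages and lymphocytes, held 1 to 10 and 2 to 11 counts. Cxcl15 had no count in healthy livers and 3 to 11 counts in untreated HCC, and Cxcl17 held 1 to 5 in every library. Among receptors, Ccr4 held 0 to 7 counts, Ccr6 0 to 14, Ccr8 0 to 4 and Cxcr5 2 to 10. Ccr10 held 7, 10 and 10 counts in healthy livers, 17, 5 and 4 in untreated HCC and 3, 0 and 6 in miR-22-treated HCC. Without a filter on low counts, Cxcl15, a neutrophil attractant, was called higher in untreated HCC (adjusted p = 0.0147, edgeR), with no overlap with healthy livers. Of the other 14, 11 had counts enough to be fitted without a filter and were not called in any comparison. Ccr10 differed between miR-22-treated HCC and healthy livers at an unadjusted p of 0.0374 (adjusted p = 0.147, edgeR) without overlap, and Ccl3, with 1, 4 and 1 counts in healthy livers and 10, 5 and 7 with miR-22, also did not overlap (adjusted p = 0.256), so that at this depth these differences could not be told from the spread.

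Genes around the chemokine system were described from lists written by hand. For these and for the marker lists, the shares of all genes were 22.7% higher and 18.1% lower in untreated HCC. With miR-22 they were 8.32% higher and 5.47% lower. Of 23 transcriptional regulators of chemokines tested, 11 were higher (10 to 13 with 1 library left out) and 1 was lower in untreated HCC. The lower one, Zfp36, a protein that destabilizes such mRNAs, fell by 1.66 ± 0.40, and by 0.93 without healthy replicate 1. With miR-22, 1 was higher, or 2 without healthy replicate 1 or miR-22-treated HCC replicate 4. Lower with miR-22 were 6, or 4 to 7 with 1 library left out. The NF-kappaB subunit Relb rose in untreated HCC by 3.58 ± 0.26 and fell with miR-22 by 0.96 ± 0.21 (adjusted p = 0.00615, edgeR). Nfkb2 rose by 2.03 ± 0.15 and fell by 0.74 ± 0.14, and the inhibitor Nfkbie rose by 2.37 ± 0.25 and fell by 1.14 ± 0.23. Bcl3, a nuclear cofactor of NF-kappaB, rose by 1.39 ± 0.15 and fell by 0.89 ± 0.14, while Cebpb rose with miR-22 by 1.07 ± 0.16. The NF-kappaB subunit Rela rose in untreated HCC by 0.83 ± 0.10, and its difference of -0.42 ± 0.10 with miR-22 stayed under the fold threshold. Of 42 genes of receptor signaling tested, 21 were higher (18 to 22 with 1 library left out) and 2 lower in untreated HCC. With miR-22, 2 were higher (4.76%) and 1 lower (2.38%), below the shares of all genes. The number lower with miR-22 was 2 without untreated HCC replicate 3 or miR-22-treated HCC replicate 2 or 4. It was 3 without untreated HCC replicate 4. Pak1, a kinase downstream of Rac, rose in untreated HCC by 4.12 ± 0.19 and fell with miR-22 by 0.83 ± 0.15. Rgs16 and Rgs1, which end G protein signaling, fell in untreated HCC by 3.04 ± 0.22 and 1.55 ± 0.33 and rose with miR-22 by 3.62 ± 0.22 and 2.61 ± 0.32. Of 15 genes for trimming chemokines or presenting them on glycans, 5 were higher and 5 lower in untreated HCC, and 2 were higher and 1 lower with miR-22. The elastase Mmp12 rose by 4.37 ± 0.22, and the protease Dpp4, which cuts Cxcl12 among others, fell by 1.11 ± 0.14 and rose with miR-22 by 0.71 ± 0.14. The proteoglycan Sdc4 fell by 1.68 ± 0.16 and rose by 1.52 ± 0.16. Of 10 chemokine-like genes outside the symbol rule, 6 were higher in untreated HCC (4 to 5 with 1 library left out, 5 by DESeq2). Among them, Pf4 rose by 3.11 ± 0.55, or 4.09 without healthy replicate 1, Cd74 by 1.02 ± 0.18 and Mif by 0.86 ± 0.12. Rarres2 was lower (-0.71 ± 0.14), under the fold threshold at -0.55 without untreated HCC replicate 3. With miR-22 edgeR and DESeq2 called 0, and leaving out 1 library gave at most 1 higher and at most 1 lower. Of the 10, 2 had an unadjusted p under 0.05 with miR-22 (edgeR, adjusted p = 0.0186 for Rarres2 and 0.0167 for Mif).

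Markers of other cells moved as well, and the shares of all genes given for the lists above apply to them. Of 5 cholangiocyte markers tested, 4 were higher in untreated HCC and 2 fell with miR-22 (Sox9 by 1.57 ± 0.24 and Epcam by 0.96 ± 0.23), with a sum of 88.3 to 139 CPM in untreated HCC, 36.4 to 60.4 with miR-22 and 6.26 to 9.99 in healthy livers. Of 8 Kupffer cell markers, 2 were lower and the other 6 were not called in untreated HCC, and Cd163 rose with miR-22 by 0.74 ± 0.23, a call lost without any of healthy replicates 2 and 3, untreated HCC replicate 3 and miR-22-treated HCC replicates 2 and 3 (0.73, 0.73, 0.47, 0.76 and 0.64). Without untreated HCC replicate 4 or miR-22-treated HCC replicate 4, 3 Kupffer cell markers were higher with miR-22. Of 8 stellate cell and fibroblast markers, 4 were higher and 2 lower in untreated HCC. The lower call of Dcn there (-0.61) was lost without healthy replicate 2 or untreated HCC replicate 3 (-0.58 and -0.46). With miR-22, 2 of the 8 were higher and 1 was lower (Col1a1, which fell by 0.94 ± 0.16). The higher calls, of Lrat and Dcn, were both lost without untreated HCC replicate 3 (0.94 and 0.56), and that of Lrat also without untreated HCC replicate 4 or miR-22-treated HCC replicate 2 or 3 (0.87, 0.90 and 1.05). The lower number was 2 without untreated HCC replicate 3 or 4 and 3 without miR-22-treated HCC replicate 4, and DESeq2 gave 1 higher and 2 lower. Of 7 dendritic cell markers, 3 were higher and 1 was lower in untreated HCC (2 to 3 and 0 to 1 with 1 library left out). With miR-22 edgeR called Siglech and DESeq2 2 of the 7. The part of these cells in the values of members was not tested.

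By position, members called in untreated HCC were spread over several clusters, and their counts are a description. Of those higher, 4 of 5 on chromosome 5, 5 of 7 on chromosome 11 and 1 of 3 on chromosome 9 did not reach the filter's cut-off in every healthy library. On chromosome 5, which holds 11 members including the Cxcl1 to Cxcl5 and Cxcl9 to Cxcl11 clusters, 5 of 9 tested were higher and 1 lower in untreated HCC and 3 were lower with miR-22. On chromosome 11, which holds 14 members including the Ccl2 cluster, 7 of 10 tested were higher and 1 was lower with miR-22. On chromosome 9, which holds 13 members and most of the receptors, 3 of 10 tested were higher and 2 lower in untreated HCC, and 2 were higher and 1 was lower with miR-22. Of all genes tested, 22.7% were higher and 18.1% lower in untreated HCC, and 8.32% and 5.47% with miR-22.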

How the data were processed

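RNA of 9 mouse livers was sequenced as pairs of reads from libraries without strand. After FastQC 0.11.7, the authors estimated transcript levels by Salmon against GRCm39, summed these over each gene by tximport and ran DESeq2 1.18, per the methods and the submitters' processing notes. They deposited whole-number counts per gene, not normalized or filtered, which were used here. They also deposited the same counts divided by a size factor for each library, which were not used.

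Counts of 55401 genes were tested with edgeR 4.0.16 in R 4.3.3 (TMM, filterByExpr, quasi-likelihood F test, two-sided, 3 groups in a single fit without covariates), which kept 15717 genes. The study's thresholds were kept, a Benjamini-Hochberg p below 0.05 together with a change of more than 1.5-fold. A group with 3 counts or fewer in every library was at the floor. Intervals are 95%. The test was checked on simulated data. Lists were written by hand, and the members and lists were chosen with earlier results of these data known.

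Values per library are given for called members, up to 15 per comparison by smallest p, for Ccl20, Ccr6, Ccl25, Ccr9 and for receptors of ligands so given, and for further members in addition to this rule. Of each other list up to 3 genes with the smallest p were to be named. Those named beyond that (Nfkbie, Rela, Zfp36, Ly6g, Lrat, Acad11, Med11, Zmynd15, Cadm3, Art3 and Elavl1) were chosen after their values were seen. Gene positions and lengths are from GENCODE M39 (GRCm39), and promoters and miR-22-3p from RefSeq (GRCm38.p6), read with Python 3.11.15. Alternatives were DESeq2 1.42.0, other scalings and filters, the 2 groups alone, a replicate block, no fold threshold, glmTreat and each library left out. The counting error sets the precision of low members, and PCR duplicates were not marked by molecular identifiers. Results of 1 member and 1 marker gene are not reported here.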

Additional observations from a re-analysis of the deposited data

How the results depend on the processing

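Between untreated HCC and healthy livers, 26 of 28 called members kept their call under each of the 17 to 19 alternatives that tested them, between miR-22-treated HCC and healthy livers 24 of 28, and between miR-22-treated and untreated HCC 1 of 8 (Cx3cr1). No called member changed direction. With at least 10 counts in every library, which left 19 members to test, 5 members were higher and 4 lower for untreated HCC against healthy livers, 7 were higher in miR-22-treated HCC than in healthy livers, and 2 were higher and 1 lower with miR-22 than in untreated HCC, against 8.83% and 5.34% of all genes under that filter. Total counts alone, which moved the median log2 fold change of all genes to 0.43 for untreated HCC against healthy livers and to -0.23 and 0.21 for the other comparisons, gave 10 members lower with miR-22 than in untreated HCC and 1 lower than in healthy livers, against 13.8% and 3.77% of all genes. Members higher with miR-22 than in untreated HCC numbered 5 without a filter, 5 without the fold threshold and 0 with glmTreat. Of all genes, 4.83%, 13.6% and 2.63% were higher in these settings. glmTreat, which tests against a 1.5-fold change, gave 1 lower member with miR-22 than in untreated HCC and 1 lower than in healthy livers. Of all genes, 0.35% and 1.87% were lower in these tests. The cause of these changes, beyond the fewer members or stricter test by construction, was not tested. Leaving out 1 library gave 23 to 26 higher and 5 to 6 lower in untreated HCC against healthy livers, 1 to 5 and 3 to 6 for miR-22-treated against untreated HCC, and 24 to 27 and 2 for miR-22-treated HCC against healthy livers. Same-numbered untreated and miR-22-treated libraries correlated at -0.116, -0.116 and -0.227, so the numbers did not pair them. With the replicate number as a block, 25 and 5 members were called higher and lower in untreated HCC against healthy livers (with Cxcl9 and Cxcl10). With miR-22 against untreated HCC, 3 and 4 were called (without Ccl7, Cxcl2 and Ccr9, and with Cxcl5 and Ackr2). For miR-22-treated HCC against healthy livers the numbers were 26 and 2 (without Ackr3 and with Cxcl10). Depth limits members under about 10 counts in a library.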
